A study of Mus musculus with 6 samples.

Results

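The 38 Hox genes described here are listed by name in 4 clusters of the mouse genome (mm9), 10 in *HoxA*, 10 in *HoxB*, 9 in *HoxC* and 9 in *HoxD*, of 22225 protein-coding genes annotated in all. The rule that chose them uses gene names and positions and no peak, and each cluster was taken from its first to its last listed gene with 20 kb added on either side. The regions were chr6:52092350-52230874 for *HoxA*, chr11:96035630-96249570 for *HoxB*, chr15:102731534-102887274 for *HoxC* and chr2:74486367-74623200 for *HoxD*, which is 0.645 Mb together. Binding of ZFP57 and of KAP1 was measured by ChIP-seq in 2 male embryonic stem cell (ESC) lines that carry a B6 and a JF1 genome. JB1 was derived from the cross of a JF1 mother with a B6 father, and BJ1 from the cross of a B6 mother with a JF1 father. Both lines were untreated and grown without feeder cells, in serum with leukaemia inhibitory factor. Each line and antibody had 1 library, so no difference between the lines has a replicate check, and line and library cannot be told apart. Each peak list gives positions and no height, score or read count, and the read depth is unknown.

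Hox genes encode homeodomain transcription factors that give the cells of the embryo their position along the body axis. Their order along the chromosome matches the order of their expression, from the anterior (low-numbered) to the posterior (high-numbered) genes. In ESCs the clusters are known to be held silent mainly by Polycomb complexes, with histone H3 methylated at lysine 27. ZFP57 is a KRAB zinc-finger protein that binds methylated TGCCGC motifs, best known at imprinting control regions, and recruits KAP1 (TRIM28). KAP1 is the co-repressor of the KRAB zinc-finger family and brings in the machinery for histone H3 lysine 9 methylation.

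The 4 regions held 19 peaks of all lists, which fell into 15 separate loci. The ZFP57 list of JB1 had 1 peak there, in *HoxB*, and the ZFP57 list of BJ1 had 0. The KAP1 list of JB1 had 3 peaks, all in *HoxB*. The KAP1 list of BJ1 had 2 peaks in *HoxA*, 8 in *HoxB*, 3 in *HoxC* and 2 in *HoxD*. KAP1 was found in both lines at 3 loci and in BJ1 alone at 12. Of the 15 loci, 9 were intergenic, 2 lay in introns, 1 overlapped an untranslated region and 3 overlapped coding sequence. Peak width, the only measure of size in the lists, was 450 to 750 bp, and the median of both whole KAP1 lists was 600 bp.

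**Figure D1:**
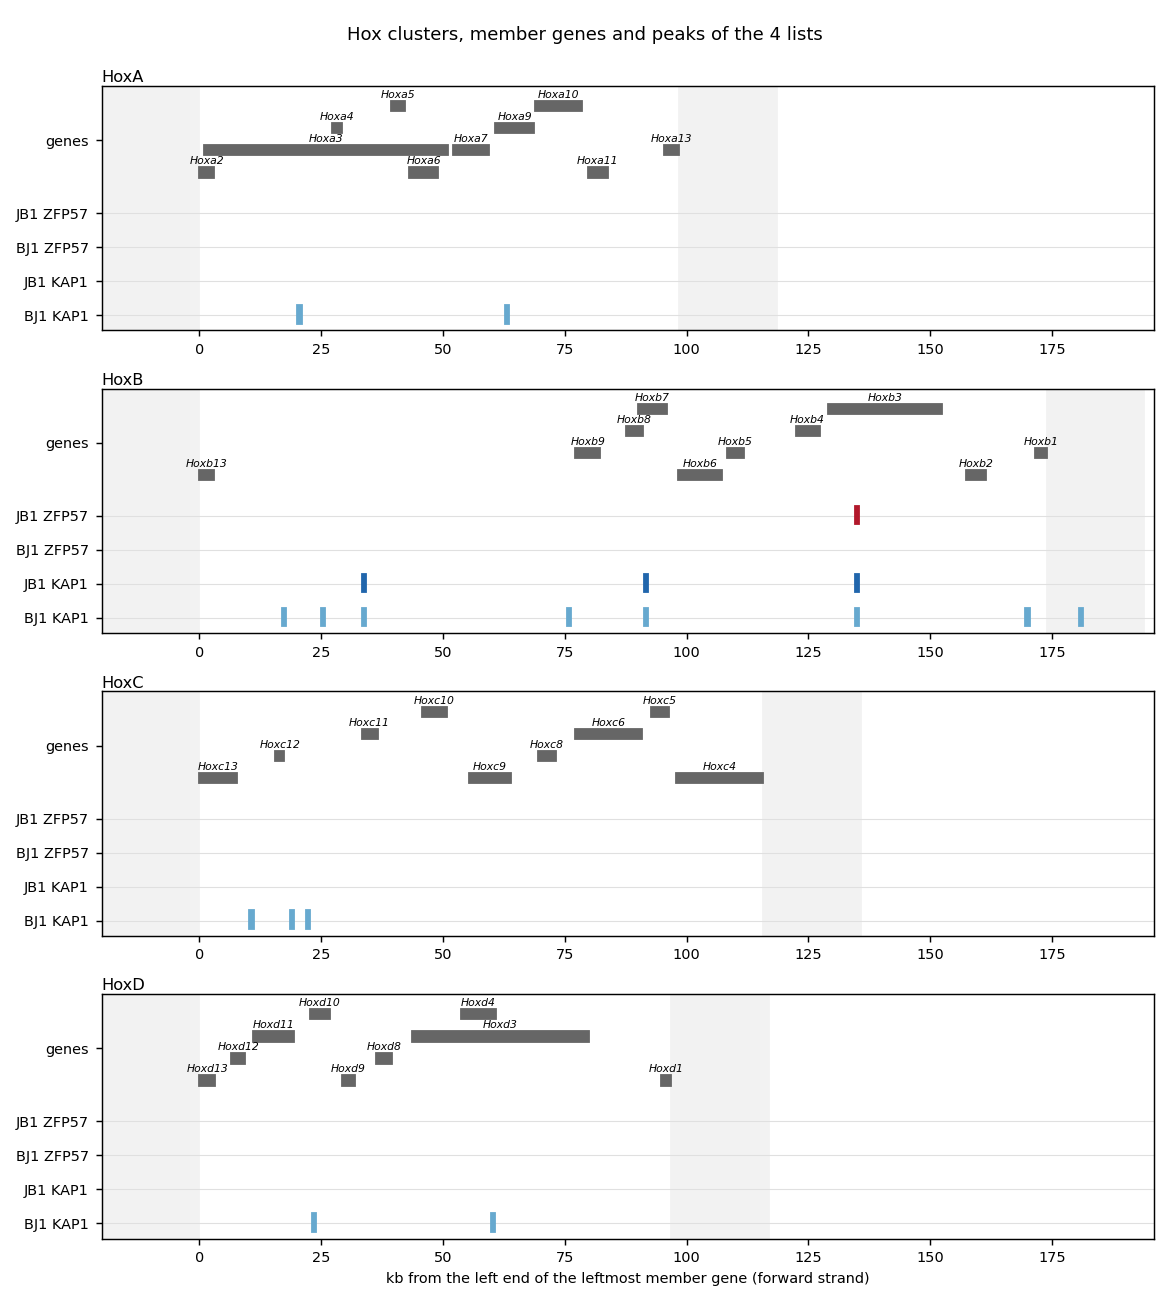
Member genes (grey boxes) and peaks of the 4 lists (coloured bars, drawn at least 0.9 kb wide for visibility) along each cluster, with kb from the left end of the leftmost member on the x axis and the 20 kb flanks shaded. The single JB1 ZFP57 peak and all 3 JB1 KAP1 peaks lie in *HoxB*, and *HoxA*, *HoxC* and *HoxD* hold BJ1 KAP1 peaks only.

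The ZFP57 peak of JB1 lay at chr11:96190201-96190650, in an intron of *Hoxb3*, an anterior group gene active in the hindbrain. Its centre was 5.79 kb downstream of the outermost *Hoxb3* start, and its edge was 0.825 kb from the nearest of the 4 annotated *Hoxb3* starts. KAP1 peaks of both lines covered the same place, at chr11:96190201-96190800, whereas the BJ1 ZFP57 list had no peak there. Such absence was the usual case, since 576 of the 10667 peaks of the whole JB1 ZFP57 list were also in the BJ1 ZFP57 list. The share of the JB1 ZFP57 list that overlaps KAP1 is not given here. The nearest BJ1 ZFP57 peak was 3507 kb from a *Hoxb3* start. This was the only locus of the 4 clusters in 3 lists. The peak was 450 bp wide, a width not exceeded by 63.9% of the JB1 ZFP57 list. The DNA of the peak was 42.9% GC, against a median of 47.6% over the list.

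The 300 bases around the centre of this peak's motifs are shown because they carry the only pair of TGCCGC motifs of the Hox clusters that lay under ZFP57. They are chr11:96190327-96190626 of mm9, forward strand, and the capitals mark GCGGCA, the reverse complement of TGCCGC. Both motifs were on the minus strand, with starts 22 bp apart. All motifs given here are those of mm9, the B6 reference, and those of the JF1 genome are unknown.
*Hoxb3* intron: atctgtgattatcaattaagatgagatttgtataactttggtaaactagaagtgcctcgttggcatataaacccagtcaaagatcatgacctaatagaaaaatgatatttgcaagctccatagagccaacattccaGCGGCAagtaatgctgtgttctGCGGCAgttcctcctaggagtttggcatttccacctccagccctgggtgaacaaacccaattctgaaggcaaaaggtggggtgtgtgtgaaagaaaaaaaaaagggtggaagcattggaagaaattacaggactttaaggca

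Motifs in couples, with starts less than 38 bp apart, were examined because ZFP57 sites are known to hold several motifs close together. The 4 regions held 6 such couples, or runs of 3, namely 2 in *HoxB*, 2 in *HoxC*, 2 in *HoxD* and 0 in *HoxA*. Only the couple of the *Hoxb3* intron lay in a peak of any list. For the genome, 10.4% of 2359 couples lay in a JB1 ZFP57 peak, a share inside the exact 95% interval of 1 in 6 (0.421 to 64.1%). Of the other 5, 2 are given for comparison with 8 bases on either side, on the forward strand of mm9, with TGCCGC or GCGGCA in capitals. They come from the *Hoxb6* coding sequence (chr11:96160556-96160611) and the intergenic DNA 2.99 kb upstream of *Hoxc10* (chr15:102794231-102794273).
*Hoxb6*: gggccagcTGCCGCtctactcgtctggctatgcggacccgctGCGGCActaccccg
*Hoxc10* upstream: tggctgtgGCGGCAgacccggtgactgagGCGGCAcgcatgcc

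The motif starts were 34 bp apart on opposite strands in *Hoxb6* and 21 bp apart on the same strand upstream of *Hoxc10*. The 200 bases around the first motif were 45.5% GC at the *Hoxb3* couple and 61.5% GC or more at the 5 couples outside peaks. The groups do not overlap, but one of them is a single couple. For the genome, the median GC of the same stretch was 53.0% for the 245 couples in JB1 ZFP57 peaks and 61.5% for the 2114 outside. Of the couples with 60% GC or more, 3.24% of 1202 lay in a JB1 ZFP57 peak, against 18.8% of the 831 with 50 to under 60% and 15.3% of the 326 under 50% GC. This comparison was chosen after the Hox values were seen.

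Single TGCCGC motifs, searched on both strands of mm9 and not in the JF1 genome, were frequent in the Hox clusters. *HoxA* had 43 (0.310 per kb), *HoxB* 40 (0.187 per kb), *HoxC* 37 (0.238 per kb) and *HoxD* 43 (0.314 per kb), which is 2.22 to 5.25 times the density of the chromosome they lie on. The regions were also richer in GC, at 47.8 to 48.8% against 41.4 to 43.8%, and in CpG, with an observed over expected ratio of 0.322 to 0.445 against 0.186 to 0.204. Few of these motifs were in peaks. JB1 ZFP57 peaks held 2 of 163, or 1.23% (0.149 to 4.36%), against 3.95% of the motifs of the genome. JB1 KAP1 peaks held 3, or 1.84% (0.381 to 5.28%), against 11.3%, and BJ1 KAP1 peaks held 7, or 4.29% (1.74 to 8.65%), against 12.4%. BJ1 ZFP57 peaks held 0, which allows up to 2.24%, against 0.653%. The KAP1 shares of the genome lay above the exact intervals of the Hox regions in both lines, and the ZFP57 shares lay inside them. These intervals take each motif as independent and cover counting error only. Counted per peak, the KAP1 shares went the other way. TGCCGC lay in 6 of the 15 BJ1 KAP1 peaks of the clusters (40%), against 20.01% of the whole BJ1 KAP1 list. In JB1 it lay in 2 of 3 KAP1 peaks (66.7%), against 31.7% of the whole JB1 KAP1 list. These shares per peak rest on few peaks and are given without intervals. GC content was high where motifs were frequent, and for single motifs its part in the low shares was not tested.

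**Figure D2:**
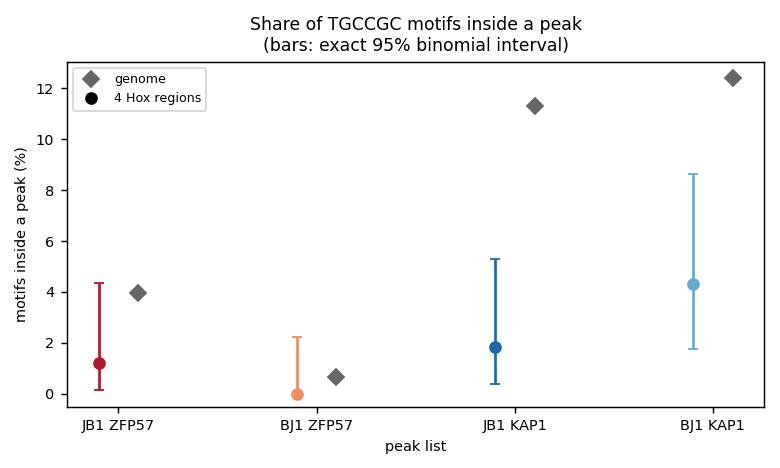
Percent of TGCCGC motifs wholly inside a peak of each list, for the 163 motifs of the 4 Hox regions (circles, with exact 95% binomial intervals) and for all 163981 motifs of the genome (diamonds). Both KAP1 lists have the genome value above the Hox interval, at 11.3% against 1.84% in JB1 and 12.4% against 4.29% in BJ1.

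At the start sites, 9 of the 38 members, or 23.7% (11.4 to 40.2%), had at least 2 TGCCGC motifs within 1 kb of the outermost start. The share of all genes, 17.8%, lay inside that interval. At least 1 motif was found there for 47.4% of the members and 43.4% of all genes. The 9 members with at least 2 were 1 of the 11 anterior, 3 of the 11 central and 5 of the 16 posterior genes. *Hoxa13*, which patterns the distal limb and the genital tract, had 5 motifs, and *Hoxc9*, *Hoxc13* and *Hoxd13* had 4 each. *Hoxd1* had 3, and *Hoxa5*, *Hoxa6*, *Hoxa11* and *Hoxd8* had 2 each. None of these 9 genes had a ZFP57 peak within 1 kb of a start in either line. Among all genes with at least 2 such motifs the share with one was 0.658% in JB1 and 0.354% in BJ1, so that 0 of 9 carries little weight. *Hoxb3*, the member with the ZFP57 peak, had 0 motifs within 1 kb of its outermost start.

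KAP1 was found in both lines at 3 places, all in *HoxB*. The first, chr11:96088951-96089400, was 450 bp wide and lay in the long stretch without a listed Hox gene between *Hoxb13* and *Hoxb9*, with its centre 33.5 kb downstream of the *Hoxb13* start. It held 0 TGCCGC motifs. The second, chr11:96146851-96147600, was 750 bp wide, overlapped an untranslated region of *Hoxb7*, a central group gene, and held 1 motif. The third was the *Hoxb3* intron with its 2 motifs. The peaks of JB1 and BJ1 had the same start and end at all 3. All peaks of the lists start on a 150 bp grid, and how often shared peaks have the same ends was not counted.

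The other 12 KAP1 peaks were in the BJ1 list alone. In *HoxB* they lay at chr11:96072601-96073200, chr11:96080551-96081000, chr11:96131101-96131700, chr11:96225151-96225600 and chr11:96236101-96236700, and all 5 were intergenic. The centre of the third was 1.37 kb upstream of the outermost start of *Hoxb9* and that of the fourth 1.69 kb upstream of *Hoxb1*, which is needed for the identity of hindbrain segments. The fifth lay 9.33 kb past the start of *Hoxb1*, in the flank. In *HoxA*, chr6:52132501-52133100 was in an intron of *Hoxa3*, a gene of pharyngeal development, and chr6:52175101-52175700 overlapped coding sequence of *Hoxa9*, a gene known from blood stem cells and leukaemia. The *Hoxa3* peak had the lowest GC of the BJ1 KAP1 peaks in the clusters, at 40.0%.

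The 3 BJ1 KAP1 peaks of *HoxC* were gathered at its posterior end, around *Hoxc12*. They lay at chr15:102761851-102762600, with its centre 4.96 kb upstream of the *Hoxc12* start, and at chr15:102770101-102770700 and chr15:102773401-102774000, 3.21 and 6.51 kb downstream. The last had the highest GC of the set, at 61.7%. From there on no peak of any list occurred for 114.9 kb, a stretch with the starts of 7 members. The longest stretch without a peak that reached into the other regions was 79.05 kb at *HoxA*, 78.15 kb at *HoxB* and 79.05 kb at *HoxD*. All 4 stretches run past the end of the region, and that of *HoxB* lies for the most part outside it. Such stretches covered much of the chromosomes. Gaps at least as long as that of *HoxC* made up 30.3% of the length of chromosome 15, and 6.30% of its gaps by number. Gaps at least as long as those of the other clusters made up 44.7 to 49.2% of the length of their chromosomes, and 11.6 to 14.0% of the gaps by number. In *HoxD*, chr2:74529451-74530200 overlapped coding sequence of *Hoxd10* and chr2:74566201-74566950 overlapped coding sequence of *Hoxd4* and an untranslated region of *Hoxd3*.

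Of the 15 BJ1 KAP1 peaks of the clusters, 3 were also in the JB1 list, or 20% (4.33 to 48.1%), against 45.3% of the whole BJ1 list. All 3 JB1 KAP1 peaks were also in the BJ1 list (29.2 to 100%), against 85.9% of the whole JB1 list. BJ1 had 5.00 times as many KAP1 peaks as JB1 in the clusters (1.41 to 26.9), and 2.03 times as many in the rest of the same chromosomes, a value inside that interval. In *HoxB* the ratio was 2.67 (0.640 to 15.6), against 2.21 for the rest of chromosome 11. The lists differed in length by 1.87 times, with 72535 KAP1 peaks in BJ1 and 38713 in JB1. A BJ1 list of the length of the JB1 list would end among its peaks of 600 bp, which cannot be ranked, and would leave between 4 and 12 of the 15 peaks, against 3 in JB1. With the same limit of width in both lists, 12 BJ1 and 2 JB1 peaks were of at least 600 bp, and 4 BJ1 and 1 JB1 peaks were wider. In *HoxB* these numbers were 5 and 2, and 1 and 1. The part of depth in these differences was not tested. For ZFP57 the order was the other way, with 10667 peaks in the JB1 list and 1318 in that of BJ1.

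Per length, no difference in KAP1 peaks between the clusters and their chromosomes exceeded counting error. BJ1 KAP1 peaks occurred at 23.3 per Mb (exact Poisson 95% interval 13.02 to 38.4) in the 4 regions and at 26.3 per Mb in the rest of the 4 chromosomes, a ratio of 0.885 (0.495 to 1.46). JB1 KAP1 peaks occurred at 4.65 per Mb (0.959 to 13.6) and 12.97 per Mb, a ratio of 0.359 (0.0739 to 1.05). With flanks of 50 kb the JB1 density was 7.91 per Mb, from 7 peaks. At the density of the rest, 17.1 BJ1 and 8.32 JB1 peaks would fall in regions of this length, where 15 and 3 were found. Both ratio intervals include 1. JB1 ZFP57 had 1 peak where 2.17 would fall, a ratio of 0.450 (0.0114 to 2.51), and BJ1 ZFP57 had 0 where 0.260 would fall. At these numbers a shortfall of ZFP57 was not detectable. For an excess, the ratio interval of JB1 reaches up to 2.51 and that of BJ1 up to 14.1.

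Against the 1 Mb on each side, the difference of JB1 was smaller. This nearby DNA, which is cut short at *HoxC* by the end of chromosome 15, had 6.97 JB1 KAP1 peaks per Mb, and the ratio of the clusters to it was 0.668 (0.133 to 2.06). For BJ1 KAP1 the sides had 23.9 per Mb and the ratio was 0.972 (0.533 to 1.65).

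With flanks of 20 kb, *HoxB* had the highest KAP1 density of the 4 clusters in value in both lines. With flanks of 50 kb the order turned in BJ1, with 30.2 per Mb in *HoxA* and 29.2 in *HoxB*, and the values came close in JB1, with 10.1 and 10.95. With the 20 kb flanks, BJ1 KAP1 reached 37.4 per Mb (16.1 to 73.7), against 26.7 for the rest of chromosome 11, a ratio of 1.40 (0.603 to 2.76). JB1 KAP1 reached 14.0 per Mb (2.89 to 41.0), against 12.1, a ratio of 1.16 (0.239 to 3.40). The 1 Mb on each side of *HoxB* had 3.00 JB1 KAP1 peaks per Mb, which gives a ratio of 4.67 (0.756 to 21.9). For BJ1 the sides had 24.0 per Mb, a ratio of 1.56 (0.637 to 3.32). None of these intervals leaves out 1. The stretch of 74.0 kb between *Hoxb13* and *Hoxb9* held 4 of the 8 BJ1 peaks, or 54.0 per Mb, and the other 139.9 kb held the other 4, or 28.6 per Mb.

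With flanks of 20 kb, the other clusters were below their chromosomes in value, but not beyond counting error. BJ1 KAP1 occurred at 14.4 per Mb (1.75 to 52.2) in *HoxA*, 19.3 per Mb (3.97 to 56.3) in *HoxC* and 14.6 per Mb (1.77 to 52.8) in *HoxD*, with ratios to the rest of the chromosome of 0.522 (0.0633 to 1.89), 0.725 (0.150 to 2.12) and 0.591 (0.0716 to 2.14). With flanks of 50 kb *HoxA* had 6 BJ1 peaks, or 30.2 per Mb, which is above the 27.6 per Mb of the rest of chromosome 6. The BJ1 intervals of all 4 clusters overlap. JB1 KAP1 had 0 peaks in each of the 3, which allows up to 26.6, 23.7 and 27.0 per Mb. Flanks of 50 kb brought in 2, 1 and 1 peaks. Windows of the same length with 0 JB1 KAP1 peaks made up 30.4% of chromosome 6, 26.4% of chromosome 15 and 32.5% of chromosome 2. Windows with at least the 8 BJ1 KAP1 peaks of *HoxB* made up 30.0% of chromosome 11.

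**Figure D3:**
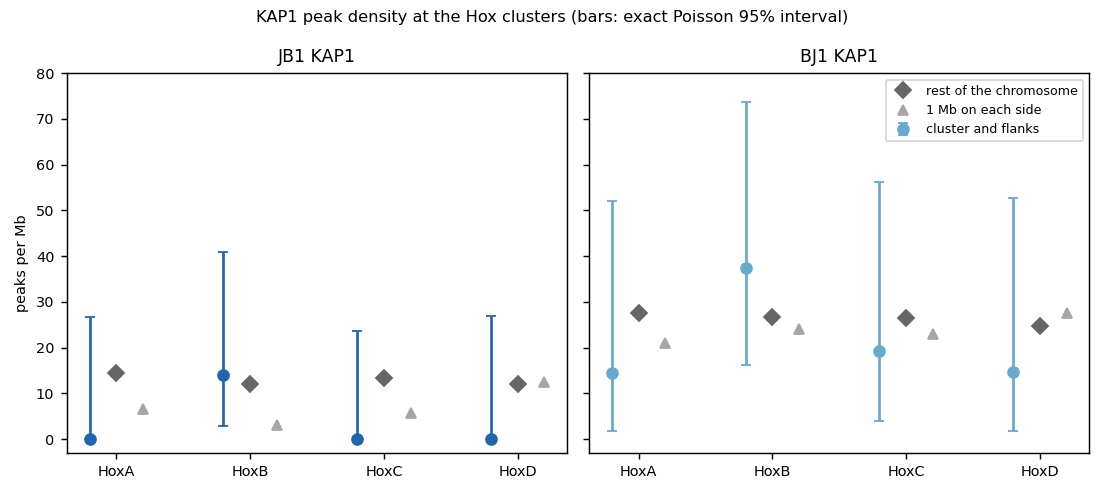
KAP1 peaks per Mb in each cluster with its flanks (circles, with exact Poisson 95% intervals), in the rest of its chromosome (diamonds) and in the 1 Mb on each side (triangles), for JB1 on the left and BJ1 on the right. With these 20 kb flanks *HoxB* is highest in both panels, at 14.0 and 37.4 per Mb, and every interval includes the value of the rest of the chromosome.

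At the start sites, KAP1 of BJ1 was within 1 kb of an annotated start of 4 of the 38 members, or 10.5% (2.94 to 24.8%), against 16.5% of all protein-coding genes. The 4 were *Hoxd10* at 0.304 kb, *Hoxa9* at 0.450 kb, *Hoxa3* at 0.754 kb and *Hoxb3* at 0.825 kb. Only *Hoxd10*, a gene of the limb and the lumbar spinal cord, had the peak near its outermost start. KAP1 of JB1 was near a start of 1 member, *Hoxb3*, or 2.63% (0.0666 to 13.8%), against 4.63% of all genes. ZFP57 of JB1 was near a start of 1 member, again *Hoxb3* with the same intron peak, against 0.823% of all genes. ZFP57 of BJ1 was near a start of 0 members, which allows up to 9.25%, against 0.252% of all genes. The share of all genes lay inside the members' interval for each of the 4 lists. The counts depended on the distance allowed. Within 0.5 kb there were 2 members for BJ1 KAP1 and 0 for JB1 KAP1 and JB1 ZFP57, against 13.5, 3.62 and 0.612% of all genes. Within 2.5 kb there were 9 (23.7%), 2 (5.26%) and 1 (2.63%), against 23.1, 7.53 and 1.62%. Within 1 kb of the outermost start there were 1, 0 and 0, against 12.4, 3.33 and 0.607%, and *Hoxb3* was lost from all 3 lists. With peaks of at least 600 bp JB1 ZFP57 was near a start of 0 members, against 0.481%. The share of all genes lay inside the members' exact interval under each of these rules. By position, the 4 members with BJ1 KAP1 were 2 of the 11 anterior (paralogue groups 1 to 4), 0 of the 11 central (5 to 8) and 2 of the 16 posterior (9 to 13).

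Over the gene bodies, BJ1 KAP1 overlapped 7 members, or 18.4% (7.74 to 34.3%), against 39.2% of all genes. They were *Hoxa3*, *Hoxa9*, *Hoxb3*, *Hoxb7*, *Hoxd3*, *Hoxd4* and *Hoxd10*, and the peak over *Hoxd3* was the same as that over *Hoxd4*. JB1 KAP1 overlapped 2 members, *Hoxb3* and *Hoxb7*, or 5.26% (0.644 to 17.7%), against 18.9%. In both lines the share of all genes lay above the members' interval. The members were shorter, with a median length of 4.08 kb against 15.5 kb over all genes, and the part of gene length in this difference was not tested. JB1 ZFP57 overlapped 1 member, *Hoxb3*, against 7.37% of all genes, and BJ1 ZFP57 overlapped 0, against 2.00%. No member of *HoxC* had a peak of any list over its body.

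The distance from an annotated start to the nearest KAP1 peak shows how unevenly the members were placed. In JB1 the median was 63.9 kb over the 38 members, against 31.6 kb over all genes, and it was 71.8 kb in *HoxA*, 13.1 kb in *HoxB*, 81.4 kb in *HoxC* and 93.8 kb in *HoxD*. In BJ1 the median was 11.5 kb, against 10.3 kb over all genes, and it was 11.2, 4.50, 24.1 and 8.96 kb in the same order. The neighbouring members of a cluster share their nearest peak, so these distances are not independent. The nearest KAP1 peak was closer in BJ1 for 28 members, at the same distance in both lines for 9 and closer in JB1 for 1. These are 73.7, 23.7 and 2.63% of the members, against 76.1, 15.6 and 8.34% of all genes. The 9 were *Hoxb3* to *Hoxb8* and *Hoxc4* to *Hoxc6*, and the 1 was *Hoxd1*, at 28.5 kb in JB1 and 34.1 kb in BJ1.

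The members farthest from KAP1 differed between the lines. In JB1 the farthest was *Hoxc13*, a gene of hair and nail, at 137.4 kb. In BJ1 it was 10.3 kb from KAP1, and the farthest was *Hoxc6* at 49.0 kb. *Hoxd13*, a gene of digit formation, was 123.1 kb from KAP1 in JB1 and 23.1 kb in BJ1. *Hoxb9* was 14.0 kb from KAP1 in JB1 and 1.07 kb in BJ1. *Hoxb1* was at 36.3 kb and 1.47 kb, and *Hoxc12* at 121.7 kb and 2.91 kb. For ZFP57 the median distance was 170.1 kb in JB1, against 129.3 kb over all genes, and 3492 kb in BJ1, against 673.9 kb. The BJ1 ZFP57 peak nearest to a member lay outside the flanks, 39.8 kb from the start of *Hoxc13*.

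**Figure D4:**
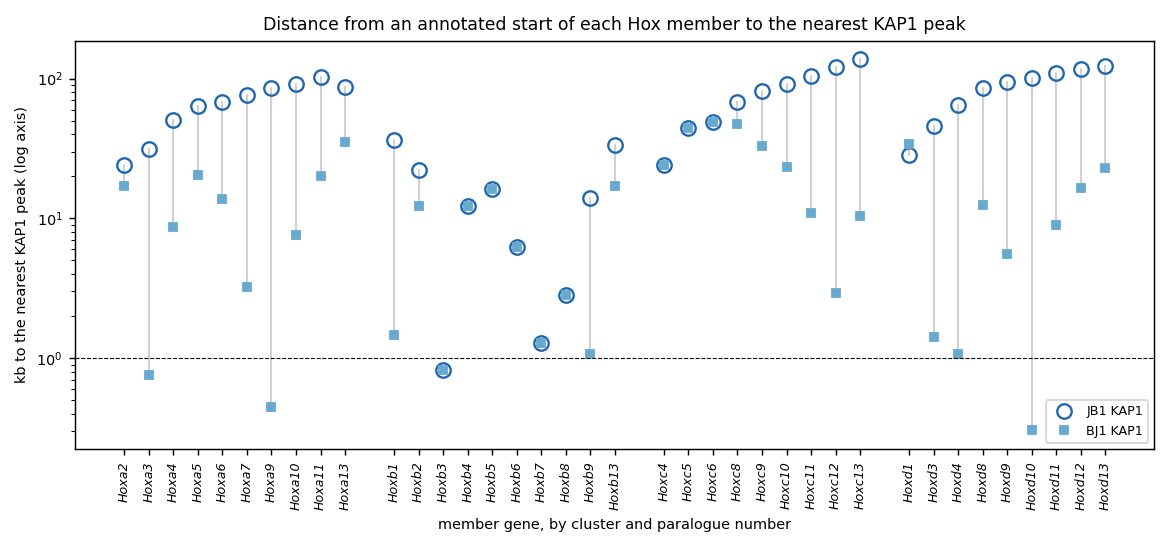
Distance in kb (log axis) from the nearest annotated start of each of the 38 members to the nearest KAP1 peak, in JB1 (open circles) and BJ1 (squares), ordered by cluster and paralogue number. The dashed line marks 1 kb, and 4 members lie below it in BJ1 (*Hoxa3*, *Hoxa9*, *Hoxb3*, *Hoxd10*) and 1 in JB1 (*Hoxb3*).

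Related genes were counted in the same way. These counts are to be read against the 16.5% of all genes with BJ1 KAP1 and the 4.63% with JB1 KAP1 at a start. Of 15 genes next to the clusters or coding for Hox cofactors, BJ1 KAP1 was at the start of 4 (26.7%) and JB1 KAP1 of 0. The widest peaks were at *Evx1*, the homeobox gene beside *HoxA* (600 bp), and at *Lnp*, beside *HoxD*, and *Pknox1*, a cofactor gene (450 bp each). Of 18 regulators of Hox genes, among them Polycomb subunits, Cdx genes and retinoic acid receptors, BJ1 KAP1 was at the start of 2 (11.1%), *Cbx7* (1350 bp) and *Jarid2* (900 bp), both of Polycomb complexes, and JB1 KAP1 of 0. Of 30 homeobox genes outside the clusters, BJ1 KAP1 was at the start of 6 (20%), with the widest peaks at *Lhx9* (1800 bp), *Six3* (900 bp) and *Pax6* (750 bp), and JB1 KAP1 at the start of 2 (6.67%), *Pax6* (750 bp) and *Dlx6* (300 bp). ZFP57 was at the start of 0 genes of these 3 lists in both lines, which at 0.823 and 0.252% of all genes is no result about lists of this size. Over the gene bodies, BJ1 KAP1 overlapped 11 of the neighbours and cofactors (73.3%), 7 of the regulators (38.9%) and 10 of the homeobox genes (33.3%), against 39.2% of all genes, and JB1 KAP1 overlapped 5 (33.3%), 3 (16.7%) and 4 (13.3%), against 18.9%. JB1 ZFP57 overlapped 3 (20%), 0 and 2 (6.67%), against 7.37%, and BJ1 ZFP57 1 (6.67%), 0 and 0, against 2.00%. The 340 numbered Zfp genes, which code for zinc-finger proteins, had BJ1 KAP1 at 22.4% of their starts and JB1 KAP1 at 4.71%, against 16.5 and 4.63% of all genes. Over their bodies the shares were 49.7% and 24.4% for KAP1, and 7.06% in JB1 and 3.53% in BJ1 for ZFP57. At the starts of the numbered Zfp genes, the widest KAP1 peaks were at *Zfp462* (3150 bp in BJ1 and 1800 bp in JB1), *Zfp936* (3000 bp, BJ1), *Zfp445* (2850 bp, BJ1), *Zfp125* (1050 bp, JB1) and *Zfp329* (750 bp, JB1). ZFP57 of JB1 was at 2 of these starts, *Zfp616* and *Zfp735* (300 bp each), and ZFP57 of BJ1 at 0.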

How the data were processed

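ZFP57 and KAP1 ChIP-seq peaks of JB1 and BJ1 ESCs were analysed, 1 library per line and antibody. The input library of each line was left out. The authors processed 50 bp single-end reads with Casava 1.8.2 and Trim Galore, mapped them to mm9 with Bowtie 0.12.7, allowing up to 2 mismatches, and called peaks per library with MACS at P below 1e-05. Whether the input served as control is not given in the sources used here. SAMtools 0.1.18 and bedtools 2.14.3-1 are named in the submitters' processing notes. The peak files deposited by the authors hold positions only, on a 150 bp grid, and no read counts. The depth of each library is therefore unknown, and the cell type could not be checked against markers.

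Peaks were assigned to a region or gene when they shared at least 1 bp with it. Genes and starts were from GENCODE M1, whose build has the mm9 chromosome lengths. Density is given in peaks per Mb with exact Poisson intervals, ratios with exact conditional intervals and shares with Clopper-Pearson intervals, all at 95%. These cover counting error only. With 1 library a group, no test across samples was possible. TGCCGC was searched as an exact match of 6 bp on both strands of mm9, the B6 reference. Both lines also carry a JF1 genome, whose sequence differences were not taken into account. Every member with a peak within 1 kb of a start was named, as were all peaks of the 4 regions and, of the other lists, the 3 genes with the widest peak at the start. The members and lists were chosen with earlier results of these data known, and 1 gene of the clusters is not reported here. The 300-base sequence and the 2 couples printed from outside peaks were picked with their values in view. The counting and motif scripts were tested on simulated data. Python 3.11.15, numpy 2.4.6, scipy 1.17.1, pysam 0.24.0 and matplotlib 3.10.9 were used.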

Additional observations from a re-analysis of the deposited data

How the results depend on the processing

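Of 140 values under alternatives, 122 stayed within the 95% interval or 1.5 times the count as first computed, and 18 moved. The intervals are wide, and staying inside them says little. With flanks of 50 kb, JB1 KAP1 over the 4 regions went from 3 peaks (4.65 per Mb) to 7 (7.91 per Mb), BJ1 KAP1 at *HoxA* from 2 (14.4 per Mb) to 6 (30.2 per Mb), and BJ1 ZFP57 at *HoxC* from 0 to 1. No density left its interval with flanks of 0 kb or with midpoints, and the KAP1 densities of the single clusters relative to the chromosome stayed in theirs with non-N bases and with windows holding a gene start. These 2 alternatives were not run for ZFP57 or for the 4 regions together. With peaks of at least 600 bp, the JB1 ZFP57 density fell to 0 in *HoxB* and over the 4 regions, and the members with JB1 ZFP57 at the start fell to 0, since the peak is narrower. Without the stretch between *Hoxb13* and *Hoxb9*, an alternative chosen after seeing the data, no *HoxB* density left its interval. With both KAP1 lists limited to peaks of at least 600 bp or to wider ones, also chosen after seeing the data, BJ1 over JB1 was 6 and 4 over the 4 regions and 2.5 and 1 in *HoxB*. Against the 1 Mb on each side, also chosen after seeing the data, the JB1 KAP1 ratio of *HoxB* rose to 4.67, since the sides held 6 peaks. Members with a peak near a start depended on the window. At 0.5 kb there were 0 for JB1 ZFP57 (0.612% of all genes), 0 for JB1 KAP1 (3.62%) and 2 for BJ1 KAP1 (13.5%). At 2.5 kb there were 2 for JB1 KAP1 (7.53%) and 9 for BJ1 KAP1 (23.1%). With the outermost start only there were 0 (0.607%), 0 (3.33%) and 1 (12.4%). When the variant GGCCGC was added to TGCCGC, the motifs per kb rose to 0.938 in *HoxA*, 0.509 in *HoxB*, 0.584 in *HoxC* and 1.08 in *HoxD*, and the density relative to the chromosome to 8.20 in *HoxA* and 8.07 in *HoxD*. No paired analysis was possible because each line and antibody has 1 library. The small number of peaks, 15 at most in a list, and the unknown depth limit every comparison above.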
